A study of Mus musculus with 6 samples.

Results

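Of the 43346 genes in the count table, 10 make up the set described here: Nfe2l2, which encodes the transcription factor NRF2, its repressor gene Keap1, and the antioxidant and detoxifying genes Nqo1, Hmox1, Gclc, Gclm, Srxn1, Txnrd1, Gsr and Gsta4. They were taken by gene name, as the factor, its sensor and commonly used targets. All 10 had counts in every library and were among the 20210 genes that passed the filter on low counts and were tested. The libraries came from limb bones of C57BL/6 mouse pups aged 1 day. There were 3 libraries from pups labelled Hdac3 CKO with Prx1 and 3 from wild type pups. Hdac3 encodes a histone deacetylase, and the Prx1 enhancer is commonly used to drive Cre recombinase in limb bud mesenchyme, the source of bone, cartilage and tendon but not of blood cells, macrophages or osteoclasts. The labels do not describe the alleles further, nor whether the wild type pups carried Cre. Separate animals or litters are not stated for the libraries, so p-values cover the spread among these libraries alone and may reflect technical variation.

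NRF2 is held at a low level in resting cells by KEAP1, an adaptor that brings it to a ubiquitin ligase for degradation. Oxidants and electrophiles modify cysteines of KEAP1, after which NRF2 accumulates, pairs with a small MAF protein and binds antioxidant response elements near its target genes. The targets make glutathione, reduce oxidised glutathione, thioredoxin and peroxiredoxins, break down heme and detoxify quinones and lipid aldehydes. Because NRF2 is regulated mainly through its protein, the level of its own transcript is not a measure of its activity.

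The promoter windows were read for the letters TGACNNNGC on both strands, where N is any base. These are core letters of the antioxidant response element, and they are shown because they are the sequence by which the factor and its targets are linked. RefSeq windows on GRCm38.p6, covering 250 bases before to 50 after a start site, were at hand for 6 of the 10 genes, in 8 windows. Hmox1, Gclc, Gsr and Gsta4 have no sequence here. The letters stood in 4 of the 8 windows, those of Srxn1, Txnrd1, Nfe2l2 and Gclm. They stood in 12.4% of all 32851 windows and in at least 1 window of 13.99% of 27025 genes. The windows of Keap1 and Nqo1 and the other 2 windows of Txnrd1 did not hold them. The sequences below are given 5′ to 3′ on the strand of the gene, with the matching 9 bases in capitals. Srxn1 is shown as 29 bases around a match that begins 29 bases after the start (chr2:152105542-152105570, plus strand). The others are the 250 bases before the start, for Txnrd1 at chr10:82858956-82859205 (plus strand), for Nfe2l2 at chr2:75704664-75704913 (minus strand) and for Gclm at chr3:122245307-122245556 (plus strand).
Srxn1: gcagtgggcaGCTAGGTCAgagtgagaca
Txnrd1: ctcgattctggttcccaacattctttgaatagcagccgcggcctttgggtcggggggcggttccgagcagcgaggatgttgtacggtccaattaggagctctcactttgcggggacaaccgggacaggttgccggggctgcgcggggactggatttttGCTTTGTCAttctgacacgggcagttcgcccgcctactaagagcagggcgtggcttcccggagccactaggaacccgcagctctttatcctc
Nfe2l2: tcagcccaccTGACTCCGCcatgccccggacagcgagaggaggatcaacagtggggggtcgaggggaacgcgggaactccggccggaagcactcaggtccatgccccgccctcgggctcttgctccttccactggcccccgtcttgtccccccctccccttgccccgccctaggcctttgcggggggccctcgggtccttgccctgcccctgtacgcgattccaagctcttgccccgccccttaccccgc
Gclm: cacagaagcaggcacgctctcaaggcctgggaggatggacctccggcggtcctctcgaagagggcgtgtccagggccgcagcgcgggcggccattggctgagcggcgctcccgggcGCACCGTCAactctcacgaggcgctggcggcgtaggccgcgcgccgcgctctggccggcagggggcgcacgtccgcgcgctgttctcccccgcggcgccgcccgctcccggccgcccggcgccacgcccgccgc
The match in Nfe2l2 begins 240 bases before the start and reads TGACNNNGC on the strand of the gene. The matches in Srxn1, Txnrd1 and Gclm read in the opposite direction, as GCNNNGTCA, and those in Txnrd1 and Gclm begin 92 and 134 bases before the start. Of these 4 genes, 0 passed the test between the genotypes described next, which 1.12% of all tested genes passed. Hmox1, the gene of the set that passed it, had no window to read. Bases outside the windows were not read for any gene.

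Of the 10 genes, 1 rose in Hdac3 CKO bone, 0 fell and 9 did not pass the test, at a Benjamini-Hochberg adjusted p under 0.05 by the quasi-likelihood test of edgeR. Of all tested genes, 1.12% passed it, 0.668% higher and 0.45% lower in Hdac3 CKO. The gene that rose was Hmox1, and Srxn1 had the next highest fold change. In 7 of the 10 the fold change was above 0 and in 3 it was below. The median log2 fold change was 0.22, beside 0.00088 over all tested genes. In 3 genes, Hmox1, Srxn1 and Txnrd1, all Hdac3 CKO libraries lay above all wild type libraries, which was so for 11.5% of all tested genes, and in 0 genes did they all lie below. Separation in either direction was found in 22.5% of all tested genes. The count of genes that rose was 2 with DESeq2, which called 4.22% of all tested genes in either direction and 2.36% as higher, and 2 with no filter on low counts, where edgeR called 0.833% higher. It was 0 in 3 of the fits that left out libraries and with limma on log2(RPKM + 1), as given with the values of Hmox1. Scaling by library totals in place of TMM lowered the median log2 fold change of all tested genes by 0.18. On that scale the median of the 10 genes was 0.03, with 6 above 0 and 4 below. Hmox1 was at 0.87, Srxn1 at 0.60, Gsr at 0.14, Txnrd1 at 0.07, Nfe2l2 at 0.04, Keap1 at 0.03, Gclc at -0.015, Gclm at -0.24, Nqo1 at -0.25 and Gsta4 at -0.57.

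**Figure D1:**
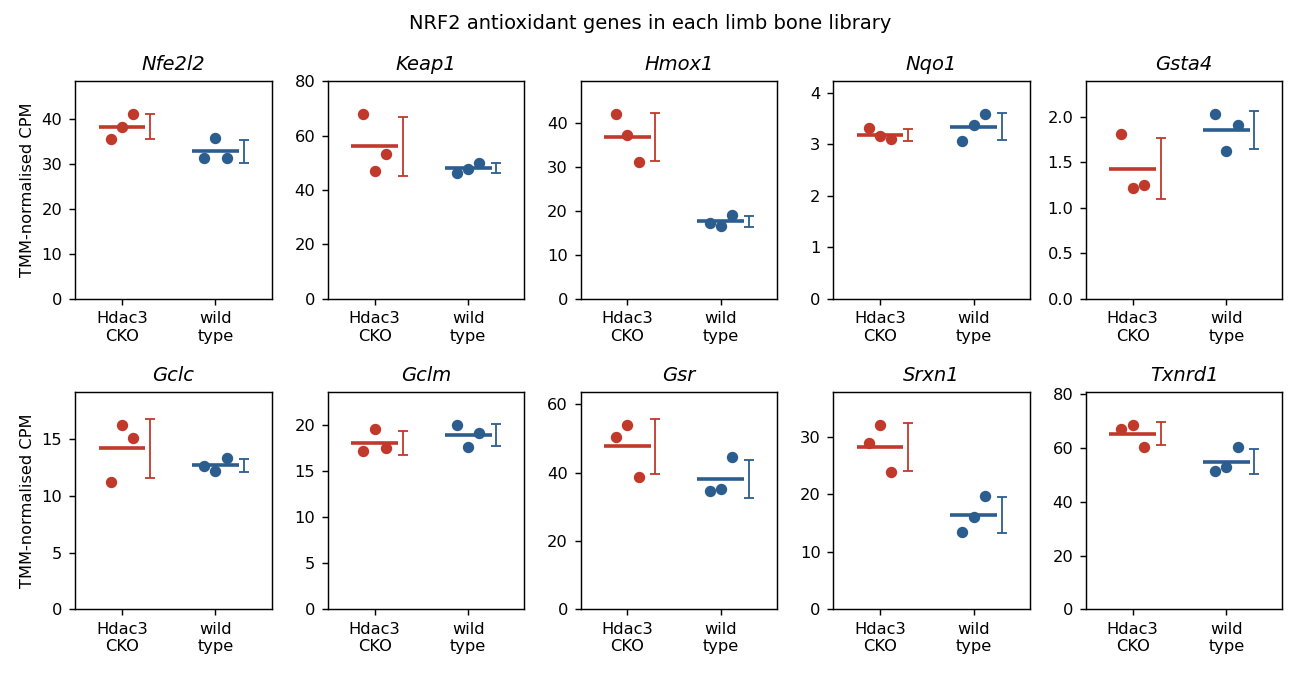
TMM-normalised CPM (counts scaled to a common library size) of the 10 genes, 1 panel for each gene with its own axis from 0. Points are libraries, with Hdac3 CKO left of wild type and replicates 1 to 3 from left to right, horizontal lines are group means and bars span 1 SD on either side. All 3 Hdac3 CKO points lie above all wild type points for Hmox1, Srxn1 and Txnrd1, and the groups overlap for the other 7 genes.

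The targeted gene itself, Hdac3, had 31.8, 29.4 and 28.3 CPM across Hdac3 CKO libraries, against 48.4, 47.4 and 50.3 CPM across wild type libraries. It fell by 0.71 ± 0.12 (SE) on the log2 scale, and edgeR's quasi-likelihood test gave an adjusted p of 0.029. Leaving out Hdac3 CKO replicate 2 gave an edgeR adjusted p of 0.065, leaving out replicate 3 gave 0.110, and leaving out wild type replicates 1, 2 and 3 in turn gave 0.127, 0.122 and 0.107. Total counts were 43389262 to 46926855 in the Hdac3 CKO libraries and 46156691 to 50927978 in the wild type libraries. The markers of bone were present, with 8 osteoblast markers summing to 42376 to 61463 CPM in Hdac3 CKO and to 26635 to 36725 CPM in wild type. Col1a1 made up 82.2% to 90.6% of these sums, and the other 7 markers summed to 5783 to 9208 CPM in Hdac3 CKO and to 3105 to 5608 CPM in wild type. Of the 8, only Dmp1 rose and 0 fell, 6 had log2 fold changes above 0, and Runx2 (-0.44, with all Hdac3 CKO libraries below wild type) and Bglap (-0.23) were below 0. The Dmp1 call was lost when any library other than wild type replicate 3 was left out. The part of these markers in the values of the 10 genes was not tested. Cartilage differed within each genotype: the sum of 8 chondrocyte markers was 15814 CPM in Hdac3 CKO replicate 3 and 8229 CPM in wild type replicate 3, against 1866 to 2512 CPM in the other 4 libraries.

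Nfe2l2 (ENSMUSG00000015839, mm10 chromosome 2, 75675513 to 75704641) had 35.6, 38.4 and 41.1 CPM across Hdac3 CKO libraries, against 31.4, 35.8 and 31.3 CPM across wild type libraries. The lowest Hdac3 CKO library lay just under the highest wild type library, so the groups overlapped. The log2 fold change was 0.22 ± 0.13 (SE), and edgeR's quasi-likelihood test gave an adjusted p of 0.438. Keap1 (ENSMUSG00000003308, chromosome 9, 21229730 to 21239332) had 67.8, 46.9 and 53.2 CPM in Hdac3 CKO, against 46.3, 47.7 and 49.9 CPM in wild type. Hdac3 CKO replicate 1 was high and replicate 2 lay within the wild type range. Keap1 had a log2 fold change of 0.22 ± 0.15 (SE), and edgeR's quasi-likelihood test gave an adjusted p of 0.515. Without Hdac3 CKO replicate 1 the log2 fold change was 0.05. That library also had the highest sum of 8 skeletal muscle markers, 46659 CPM. The muscle sum was 28050 and 29667 CPM in the other Hdac3 CKO libraries and 25375 to 30806 CPM in wild type. Hdac3 CKO replicate 1 was the highest of the 6 libraries for the osteoblast, macrophage, endothelial and adipocyte marker sums as well. The part of muscle or of these other cells in the Keap1 value was not tested. Of the exon bases of Keap1, 10.9% overlap the antisense gene Gm16754, and the strand setting of the counting is not given in the sources used here.

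Within a library, the ratio of Keap1 to Nfe2l2 counts is free of library scaling. It was 1.91, 1.22 and 1.29 in the Hdac3 CKO libraries and 1.48, 1.33 and 1.595 in the wild type libraries. The ratios of the Hdac3 CKO libraries lay on both sides of the wild type range. The mean log2 ratio differed by -0.019 between Hdac3 CKO and wild type, with a two-sided exact permutation p of 0.9, where 3 against 3 libraries cannot go below 0.1.

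Hmox1 (ENSMUSG00000005413, chromosome 8, 75093591 to 75100596) encodes heme oxygenase 1, the inducible enzyme that opens the heme ring and releases iron, carbon monoxide and biliverdin. It had 42.1, 37.2 and 31.2 CPM across Hdac3 CKO libraries, against 17.3, 16.6 and 19.0 CPM across wild type libraries. The lowest Hdac3 CKO library was well above the highest wild type library. The means were 36.8 ± 5.4 CPM in Hdac3 CKO and 17.6 ± 1.3 CPM in wild type (SD, n = 3 each). Hmox1 rose 2.09-fold, a log2 fold change of 1.06 ± 0.15 (SE), and edgeR's quasi-likelihood test gave a Benjamini-Hochberg adjusted p of 0.016. Of all tested genes, 1.19% had a higher log2 fold change. The log2 fold change ranged from 0.95 to 1.17 when each library was left out in turn. The call was lost without wild type replicate 1 (edgeR adjusted p 0.078), without wild type replicate 2 (0.079), without both replicates 3 (0.103) and with limma on log2(RPKM + 1) (0.051). On the deposited RPKM scale, Hmox1 stood at 14.9, 13.1 and 10.8 RPKM in Hdac3 CKO and at 6.02, 6.89 and 7.38 RPKM in wild type, again without overlap. On that scale 4.65% of all tested genes had all Hdac3 CKO libraries above wild type and 17.9% had all below.

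**Figure D2:**
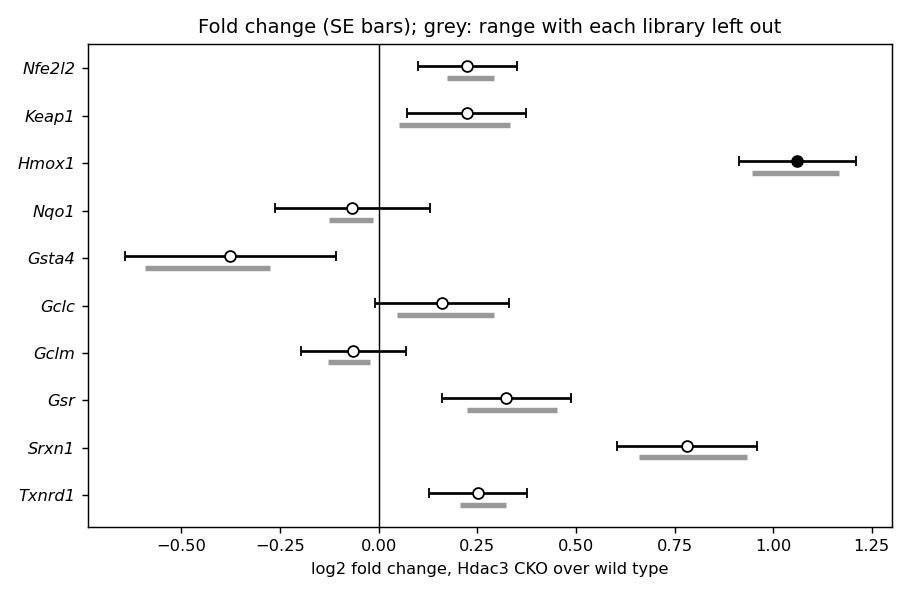
The log2 fold change of each of the 10 genes, Hdac3 CKO over wild type, from edgeR. Points are estimates with bars of 1 SE, the filled point passed the test, and the grey bars below span the estimates when each of the 6 libraries is left out in turn. Hmox1, at 1.06, is the filled point, and none of the grey bars crosses 0. The SE bars of Gclc, Gclm and Nqo1 do cross 0.

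Hmox1 is high in macrophages that clear red blood cells. Most macrophage markers and their sum were higher in Hdac3 CKO, as Hmox1 was, and red cell markers were lower. The sum of 14 macrophage markers was 607, 581 and 539 CPM in the Hdac3 CKO libraries and 312, 317 and 324 CPM in the wild type libraries, with no overlap between the genotypes. Of 12 markers tested, 6 rose and 0 fell, and 10 had log2 fold changes above 0. Mertk (-0.18) and Spic (-0.97, with all Hdac3 CKO libraries below wild type) were below 0. Marco and Vsig4 were below the filter, and none of the 14 was at 0 in all libraries. The markers with the smallest p were complement genes: C1qb rose by 1.24 ± 0.14 (log2, SE; adjusted p 0.0098) and C1qa by 1.25 ± 0.16 (adjusted p 0.014) in edgeR's quasi-likelihood test. Both calls were lost without wild type replicate 1 or 2 and without both replicates 3. Spic, 1 of the 14 markers, is a transcription factor of iron-recycling macrophages. It had few counts, 14, 14 and 9 in Hdac3 CKO and 23, 32 and 33 in wild type. Counting error alone was up to 33.3% of a library's value for it. Spic and Slc40a1, the iron exporter ferroportin, were named after their values were seen. Their log2 fold changes were -0.97 ± 0.41 and -0.29 ± 0.14 (SE), and neither passed edgeR's quasi-likelihood test (adjusted p 0.312 and 0.367).

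The ratio of Hmox1 counts to the summed macrophage counts was 0.0693, 0.0640 and 0.0579 in Hdac3 CKO and 0.0554, 0.0524 and 0.0588 in wild type. Wild type replicate 3 stood above the lowest Hdac3 CKO library, so the overlap absent from the Hmox1 level was present in the ratio. The mean log2 ratio was higher by 0.20 in Hdac3 CKO, with a two-sided exact permutation p of 0.2. With 3 against 3 libraries this p cannot go below 0.1, so it could not pass at 0.05. With deposited RPKM values the difference was 0.061. The sum is weighted to markers with many counts, the largest being Csf1r, at 149 to 188 CPM in Hdac3 CKO. C1qa, C1qb, C1qc and Fcgr1 had higher log2 fold changes than Hmox1, 1.24 to 1.35 against 1.06. The other tested markers had lower ones, among them Csf1r (0.85), Mrc1 (0.73) and Mertk (-0.18). The difference therefore rests on the markers in the sum, and ratios to single markers were not tested. The ratio to the sum describes the 6 libraries, and the part of macrophages in the Hmox1 result was not tested. In bulk bone, fewer cells of a type and less RNA per cell cannot be told apart, and the same holds for more.

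**Figure D3:**
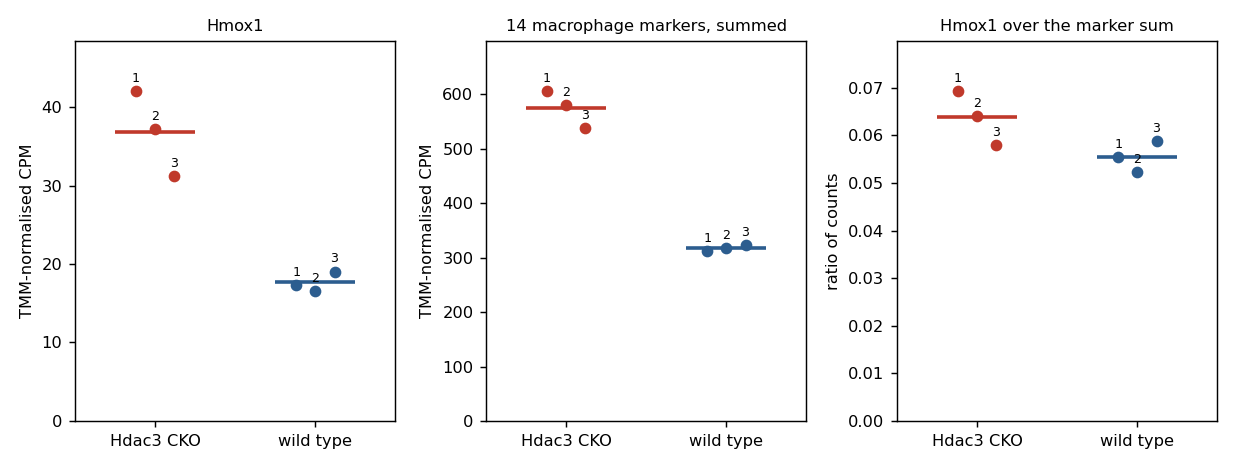
Hmox1 in TMM-normalised CPM, the sum of 14 macrophage markers in TMM-normalised CPM and the ratio of their counts, with Hdac3 CKO left of wild type. Numbered points are the replicates and lines are group means. The genotypes are separate in the first and second panels and overlap in the third, where wild type replicate 3 (0.0588) lies above Hdac3 CKO replicate 3 (0.0579).

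The sum of 9 red cell markers was 134 to 172 CPM in Hdac3 CKO and 222 to 376 CPM in wild type, and 2 of 9 tested, Alas2 and Hbb-bs, fell. Their log2 fold changes were -1.01 ± 0.19 and -1.07 ± 0.21 (SE), and edgeR's quasi-likelihood test gave adjusted p of 0.043 and 0.047. The Alas2 call was lost when any 1 of the 6 libraries was left out, and the Hbb-bs call when any library other than wild type replicate 1 was left out. The sum of 8 neutrophil markers was 17.4 to 26.9 CPM in Hdac3 CKO and 83.6 to 249 CPM in wild type. The part of these cells in the Hmox1 result was not tested.

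Predicted genes, clones and pseudogenes, known by their symbols, were left out of the search for genes like Hmox1. Among the rest, those whose pattern over the 6 libraries was most like that of Hmox1 were Dpep1, Ror2 and Cdkn1a. Dpep1 encodes a dipeptidase that cleaves cysteinylglycine, Ror2 a receptor for Wnt5a and Cdkn1a the cell cycle inhibitor p21. The root mean square difference of their centred log2 CPM from that of Hmox1 was 0.062 for Dpep1, 0.073 for Ror2 and 0.073 for Cdkn1a.

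Srxn1 (ENSMUSG00000032802, chromosome 2, 152105516 to 152111376) encodes sulfiredoxin, which repairs overoxidised peroxiredoxins. It had 28.9, 32.1 and 23.9 CPM across Hdac3 CKO libraries, against 13.5, 16.1 and 19.8 CPM across wild type libraries. The genotypes did not overlap, and the nearest libraries were both replicates 3. Its log2 fold change was 0.78 ± 0.18 (SE), and edgeR's quasi-likelihood test gave an adjusted p of 0.080, so the call was not made. It was made with DESeq2 (adjusted p 0.0052) and by edgeR with no filter on low counts (adjusted p 0.024). With each library left out in turn the log2 fold change ranged from 0.66 to 0.93, and 2.65% of all tested genes had a higher one than 0.78.

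Txnrd1 (ENSMUSG00000020250, chromosome 10, 82859206 to 82897724) encodes cytosolic thioredoxin reductase, which keeps thioredoxin reduced with NADPH. It had 67.0, 68.6 and 60.5 CPM in Hdac3 CKO, against 51.4, 53.1 and 60.2 CPM in wild type. The groups were separated only by the narrow gap between both replicates 3. Txnrd1 had a log2 fold change of 0.25 ± 0.12 (SE), and edgeR's quasi-likelihood test gave an adjusted p of 0.379. On the deposited RPKM scale the groups overlapped, at 13.2 to 15.3 RPKM in Hdac3 CKO and 11.3 to 14.8 RPKM in wild type.

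Gsr (ENSMUSG00000031584, chromosome 8, 33652523 to 33698163) encodes glutathione reductase, which returns oxidised glutathione to its reduced form. It had 50.4, 54.0 and 38.7 CPM in Hdac3 CKO, against 34.5, 35.3 and 44.5 CPM in wild type. Hdac3 CKO replicate 3 lay below wild type replicate 3, and the other Hdac3 CKO libraries lay above all of wild type. For Gsr the log2 fold change was 0.32 ± 0.16 (SE), and edgeR's quasi-likelihood test gave an adjusted p of 0.393.

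Across Srxn1, Txnrd1 and Gsr the libraries stood in the same order within each genotype, with Hdac3 CKO replicate 3 the lowest of its group and wild type replicate 3 the highest of its group. In the osteoblast and macrophage marker sums too, Hdac3 CKO replicate 3 was the lowest and wild type replicate 3 the highest of its group. In both of those sums Hdac3 CKO replicate 1 lay above replicate 2. Single macrophage markers differed in their order. Wild type replicate 3 was the highest of its group for Csf1r (113.6 CPM) and Cd68 (41.9 CPM), among others. It was the lowest of its group for Adgre1 (11.2 CPM), C1qc (22.2 CPM), Mrc1 (38.1 CPM), Cd163 (5.88 CPM) and Fcgr1 (3.72 CPM). The sum of 8 osteoclast markers had the full order of Srxn1, Txnrd1 and Gsr. It was 3008, 3197 and 2454 CPM in Hdac3 CKO and 1332, 1447 and 2418 CPM in wild type. Most of this sum was Mmp9, Ctsk and Acp5, at 1318, 962 and 634 CPM in Hdac3 CKO replicate 1. Acp5, Calcr and Atp6v0d2 did not have the order of the sum in Hdac3 CKO. Of the 8 osteoclast markers, 0 passed the test, 7 had log2 fold changes above 0 and 1, Calcr (-0.04), was below 0. Atp6v0d2 was at 0.16, and the genotypes overlapped for it and for Calcr. The 2 with the smallest p were Dcstamp and Ocstamp, which encode fusion proteins of osteoclast precursors. Their log2 fold changes were 0.88 ± 0.20 and 1.02 ± 0.24 (SE), with edgeR adjusted p of 0.084 and 0.095. The following ratios were chosen after these values were seen and carry no test. Srxn1 had 9.61 to 10.04 counts per 1000 osteoclast marker counts in Hdac3 CKO and 8.17 to 11.1 in wild type, so its groups overlapped. Txnrd1 had 21.5 to 24.7 in Hdac3 CKO and 24.9 to 38.6 in wild type, and Gsr had 15.8 to 16.9 in Hdac3 CKO and 18.4 to 25.9 in wild type, with Hdac3 CKO below wild type in both. Hmox1 had 11.6 to 13.99 in Hdac3 CKO and 7.87 to 13.0 in wild type, with overlap. Both replicates 3 also had the highest chondrocyte marker sums, 15814 CPM in Hdac3 CKO and 8229 CPM in wild type, against 1866 to 2512 CPM in the other 4 libraries. The part of osteoclasts, osteoblasts, macrophages or cartilage in the levels of Srxn1, Txnrd1, Gsr and Hmox1 was not tested.

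Gclc (ENSMUSG00000032350, chromosome 9, 77754535 to 77794485) and Gclm (ENSMUSG00000028124, chromosome 3, 122245557 to 122269984) encode the catalytic and modifier subunits of glutamate-cysteine ligase, the rate-limiting enzyme of glutathione synthesis. Gclc had 11.3, 16.3 and 15.1 CPM in Hdac3 CKO, against 12.6, 12.2 and 13.3 CPM in wild type. The Hdac3 CKO libraries lay on both sides of the wild type range. Gclm had 17.2, 19.6 and 17.5 CPM in Hdac3 CKO, against 20.01, 17.6 and 19.1 CPM in wild type. The ranges of the genotypes overlapped. The log2 fold changes were 0.16 ± 0.17 for Gclc and -0.06 ± 0.13 for Gclm (SE), and edgeR's quasi-likelihood test gave adjusted p of 0.688 and 0.855. The sign of Gclc changed with scaling by library totals (-0.015). With each library left out in turn, Gclc ranged from 0.05 without Hdac3 CKO replicate 2 to 0.29 without Hdac3 CKO replicate 1. Gclm ranged from -0.13 without Hdac3 CKO replicate 2 to -0.02 without wild type replicate 1. On the RPKM scale Gclm was 2.36 to 2.69 in Hdac3 CKO and 2.72 to 2.89 in wild type, without overlap, where 17.9% of all tested genes lay wholly below wild type. Of the exon bases of Gclm, 4.7% are shared with Gm17494 and Gm6061.

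The ratio of Gclm to Gclc counts was 1.53, 1.20 and 1.16 in the Hdac3 CKO libraries and 1.58, 1.44 and 1.43 in the wild type libraries. Hdac3 CKO replicate 1 lay within the wild type range and the other Hdac3 CKO libraries below it. The mean log2 ratio differed by -0.21 between Hdac3 CKO and wild type, with a two-sided exact permutation p of 0.3.

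Nqo1 (ENSMUSG00000003849, chromosome 8, 107388225 to 107403206) encodes a quinone reductase that is widely used as a readout of NRF2 activity. It had 3.32, 3.15 and 3.09 CPM in Hdac3 CKO, against 3.06, 3.37 and 3.58 CPM in wild type, and the groups overlapped. For Nqo1 the log2 fold change was -0.07 ± 0.20 (SE), and edgeR's quasi-likelihood test gave an adjusted p of 0.902. Gsta4 (ENSMUSG00000032348, chromosome 9, 78191966 to 78209348) encodes a glutathione S-transferase that conjugates the lipid aldehyde 4-hydroxynonenal. It had 1.82, 1.22 and 1.26 CPM in Hdac3 CKO, against 2.03, 1.63 and 1.91 CPM in wild type. Hdac3 CKO replicate 1 lay inside the wild type range and the other Hdac3 CKO libraries below it. For Gsta4 the log2 fold change was -0.38 ± 0.27 (SE), and edgeR's quasi-likelihood test gave an adjusted p of 0.537. It ranged from -0.59 without Hdac3 CKO replicate 1 to -0.28 without Hdac3 CKO replicate 2. Gsta4 had the fewest counts of the 10 genes, 52 to 75 in Hdac3 CKO and 84 to 108 in wild type, where counting error alone was up to 13.9% of a library's value. On the RPKM scale it was 0.971 to 1.45 in Hdac3 CKO and 1.53 to 1.67 in wild type, without overlap and beside the same 17.9%.

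Levels of different genes were compared per length, in the deposited RPKM. The order rests on the deposited gene lengths, and for some genes these differ from the exon bases in GENCODE. They were 3417 against 7086 bases for Txnrd1, 2161 against 1751 for Hmox1 and 957 against 1266 for Gsta4. The order with other lengths was not tested. In Hdac3 CKO the order of mean levels was Txnrd1 (14.5), Gsr (13.1), Hmox1 (12.9), Keap1 (9.10), Nfe2l2 (7.65), Srxn1 (7.60), Gclc (3.14), Gclm (2.47), Nqo1 (1.55) and Gsta4 (1.13). The ranges of neighbours overlapped down to Srxn1, which lay wholly above Gclc, and Gclm and Nqo1 each lay wholly above the next gene. In wild type the order was Txnrd1 (13.3), Gsr (11.5), Keap1 (8.53), Nfe2l2 (7.20), Hmox1 (6.76), Srxn1 (4.86), Gclc (3.08), Gclm (2.82), Nqo1 (1.79) and Gsta4 (1.598). There Gsr, Hmox1, Srxn1 and Gclm each lay wholly above the next gene, and the other neighbours overlapped. Hmox1 had rank 3 of the 10 in Hdac3 CKO and rank 5 in wild type.

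**Figure D4:**
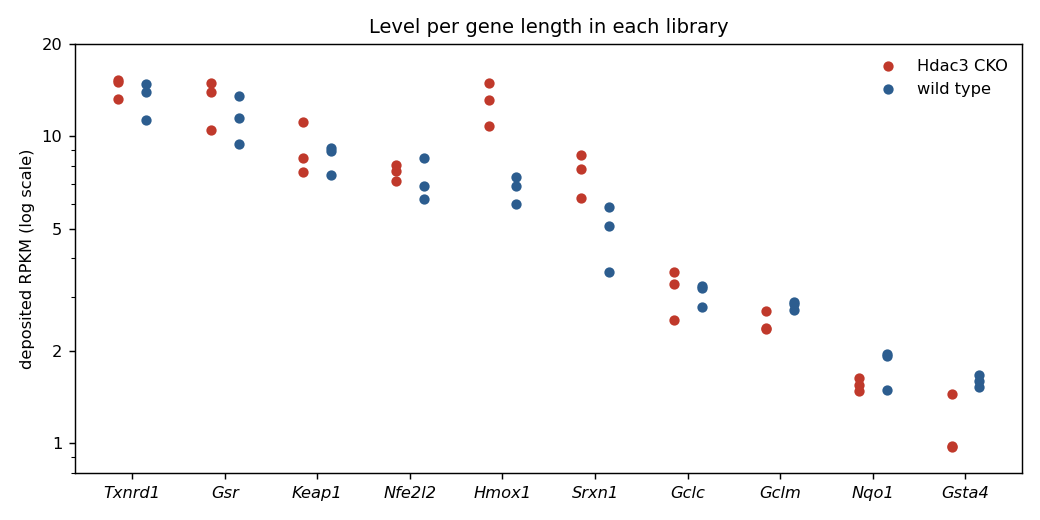
Deposited RPKM of the 10 genes in each library on a log scale, Hdac3 CKO left of wild type. Genes are ordered by their level and points are libraries. Hmox1 and Srxn1 in Hdac3 CKO lie above wild type (4.65% of all tested genes did), Gclm and Gsta4 lie below it (17.9% did), and the other 6 overlap.

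Other genes of the pathway were read from 8 lists, which together held 102 tested genes. Of these, 1 rose and 0 fell, beside 1.12% of all tested genes called in either direction, and the median log2 fold change was 0.08. The gene that rose was Chac1, which encodes an enzyme that degrades glutathione and is known as a target of the ATF4 stress response. It had 7.55, 5.50 and 9.32 CPM in Hdac3 CKO, against 0.601, 0.756 and 2.01 CPM in wild type, a log2 fold change of 2.73 ± 0.43 (SE; adjusted p 0.026 in edgeR's quasi-likelihood test). All Hdac3 CKO libraries lay far above wild type. The call was lost without Hdac3 CKO replicate 1 or 3, without wild type replicate 1 or 2 and without both replicates 3 (edgeR adjusted p 0.070 to 0.109). Of the glutathione supply and peroxidase list, 17 genes were tested and the median was 0.08. Named after their values were seen, Slc7a11 and Slc3a2, which encode the cystine importer, had log2 fold changes of 0.08 ± 0.31 and 0.66 ± 0.16, Gpx3 one of 0.84 ± 0.20 and Chac2, the relative of Chac1, one of -1.10 ± 0.26 (SE), and none of the 4 passed. The sign for Slc7a11 changed with library totals, RPKM and limma-voom.

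Of 15 regulators and partners of NRF2 0 passed, with a median of 0.08. Sqstm1, whose protein p62 sequesters KEAP1, had a log2 fold change of 0.61 ± 0.15 (SE) with all Hdac3 CKO libraries above wild type, and an edgeR adjusted p of 0.097. Nfe2, a factor of the erythroid and megakaryocyte lineages, had one of -1.16 ± 0.35 (SE; edgeR adjusted p 0.165), in the direction of the red cell markers. The partner Mafg, the competitor Bach1 and the relative Nfe2l1, named after their values were seen, had log2 fold changes of 0.20, 0.07 and 0.40, where the sign for Bach1 changed with library totals and with RPKM.

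In the other lists 0 genes passed. Of 20 glutathione S-transferases the median was 0.0086, and Gstt1 and Mgst2, those with the smallest p, had log2 fold changes of -1.11 ± 0.27 and -1.06 ± 0.36 (SE). Of 11 thioredoxin and peroxiredoxin genes the median was 0.15, with Prdx1, a substrate of sulfiredoxin, at 0.45 ± 0.13 and Txnip, which binds thioredoxin, at 0.48 ± 0.16. Of 8 NADPH-producing enzymes the median was 0.12, with Me1 at 0.23 and Idh1 at -0.16. Of 10 heme and iron genes the median was 0.07, with the ferritin chains Ftl1 and Fth1, which store iron, at 0.55 ± 0.15 and 0.51 ± 0.19. Of 17 quinone, carbonyl and conjugating enzymes and efflux pumps the median was 0.20, with the pumps Abcc4 and Abcc3 at 0.80 ± 0.16 and 0.87 ± 0.20 (edgeR adjusted p 0.057 and 0.086). Of 4 superoxide dismutases and catalase the median was 0.24, with Sod3 at 0.75 ± 0.25 and Sod2 at 0.26 ± 0.15. Gpx2, Gsta1, Gsta2 and Abcc2 were below the filter.

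**Figure D5:**
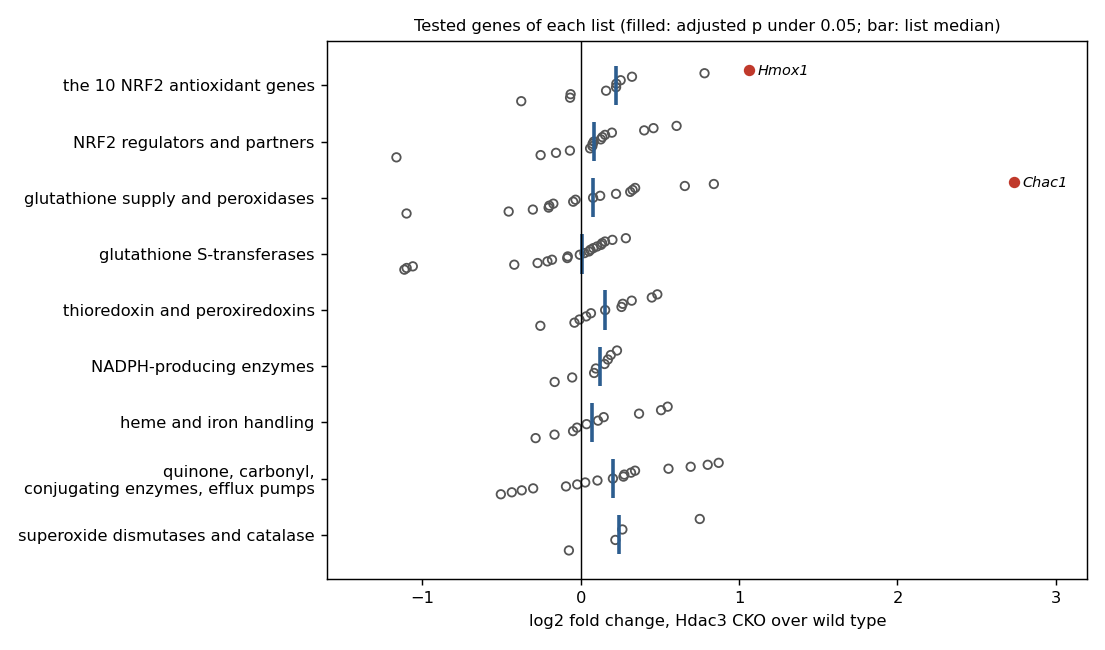
Log2 fold change, Hdac3 CKO over wild type, of the tested genes in the set of 10 and in each of the 8 pathway lists. Circles are genes, filled circles passed the test, and vertical bars are list medians. Hmox1 and Chac1 are the filled circles, and the list medians lie between 0.0086 and 0.24.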

How the data were processed

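RNA of 6 limb bone libraries was measured by RNA-seq with a TruSeq v2 mRNA kit, per the labels' protocols. Raw read counts and RPKM values for each gene were deposited by the authors. The submitters' processing notes name mm10 as the build, with TopHat2 2.1.0, bcl2fastq 1.8.4, featureCounts and Subread as tools; neither strand setting nor annotation release is given in the sources used here. The deposited RPKM divided counts by library totals of which 72.1% to 87.0% lay in genes, and by the gene length of the table plus 1 base. Of 43346 genes, 12478 had no count.

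Counts were normalised by TMM and compared between Hdac3 CKO and wild type with edgeR's quasi-likelihood test (edgeR 4.0.16, R 4.3.3, robust, 4 residual degrees of freedom, no covariate), over the 20210 genes that passed edgeR's filter. Benjamini-Hochberg adjustment ran over all tested genes, and a gene rose or fell at an adjusted p under 0.05. Log2 fold changes are Hdac3 CKO over wild type with standard errors from the fit. Ratios within a library were compared with two-sided exact permutation tests. The procedure was tested on simulated data. Alternatives used DESeq2 1.42.0, limma 3.58.1, other scaling and filters, and libraries left out.

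The 10 members, the lists and the tests were chosen with earlier results of these data known. The naming rule took all members, Hdac3, genes called in each pathway list (at most 4) or else the 2 with the smallest p, the 2 with the smallest p in marker lists that moved with a member, and the 3 genes most like the member with the largest change. The likeness used log2(CPM + 0.05) and left out genes with the symbols of predicted genes, clones or pseudogenes. Replicates were numbered in the order of their records, and no pair of libraries of the same genotype agreed within sampling noise. Positions (mm10) were taken from the deposited table; exon overlaps came from GENCODE on the same assembly.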

Additional observations from a re-analysis of the deposited data

How the results depend on the processing

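Over the 10 genes and 15 alternatives, 142 of 150 pairs kept direction and side of the threshold, 4 (all Hmox1) lost the call, 2 (both Srxn1) gained it and 2 changed sign. The sign changes were Gclc with library totals (-0.015) and Nqo1 without both replicates 3 (0.0066; -0.126 to -0.0144 with each library left out). The number of the 10 that rose was 2 with DESeq2 and with no filter, 0 with limma on log2(RPKM + 1) and without both replicates 3, and 0 to 1 with each library left out. Over all tested genes, 135 rose and 91 fell; these counts were 476 and 376 with DESeq2 and 257 and 193 with no filter, 54 rose with library totals, 59 with log2(RPKM + 0.1) and 48 with log2(RPKM + 1), and 59 fell with limma-voom. With each library left out, 11 to 127 rose and 10 to 75 fell. Without both replicates 3, edgeR called 0 in either direction, with 2230 genes at an unadjusted p under 0.05. With library totals 33.8% of calls were higher in Hdac3 CKO, against 59.7% in the TMM fit, and with log2(RPKM + 1) and log2(RPKM + 0.1) 36.6% and 36.9%. Library totals moved the median of all genes by -0.18 (log2), and log2(RPKM + 0.1) by -0.12. The log2 ratio of Keap1 to Nfe2l2, -0.019, ranged from -0.218 to 0.102 with each library left out, was above 0 in 3 of those 6 fits (also 0.060 and 0.044) and was 0.123 without both replicates 3. That of Gclm to Gclc ranged from -0.331 to -0.132, and that of Hmox1 to the macrophage sum from 0.135 to 0.265. Among other named genes, 13 values changed sign. With each library left out, the log2 fold change of Acan ranged from -0.179 to 1.32, that of Bach1 from -0.188 to 0.239 and that of Slc7a11 from -0.110 to 0.369. Bach1 was at -0.0947 with library totals, -0.0724 with log2(RPKM + 0.1) and -0.0613 with log2(RPKM + 1). Slc7a11 was at -0.0885, -0.0652 and -0.00908 under the same settings, -0.0170 with limma-voom and -0.123 without both replicates 3. The cause was not tested. No paired analysis was possible because the labels give no replicate numbers that the genotypes share. Depth limits mainly Gsta4 and Nqo1, which had the fewest counts of the 10 genes.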
